A study of Rattus norvegicus with 12 samples.

Results

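Soy protein isolate was compared with casein as the dietary protein in rats that received no estradiol, in 6 of the 12 arrays of the series: 3 pools of mammary gland RNA from soy-fed rats and 3 from casein-fed rats, chosen by the diet in the sample titles. All were female Sprague-Dawley rats that ate their diet from postnatal day 30, lost their ovaries on day 50 and were killed on day 64, when the paired abdominal mammary glands were frozen; the rats of these 6 pools received vehicle for the last 14 days. The other 6 arrays hold casein-fed and soy-fed rats, also ovariectomized, that received 17β-estradiol (E2) from a small osmotic pump over those 14 days. They serve here to estimate the spread and to show the same diet difference under E2. The titles of the casein-fed E2 pools name no diet, and casein was read from the protocol. How many rats a pool holds is not given in the sources used here, and nothing says that pools of a group came from different animals, so p-values measure only the spread between pools. One label field speaks of hepatic expression, whereas the source of every sample is mammary gland.

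Ovariectomy removes the main source of estrogen, and the ducts of the gland regress without it. What remains of an abdominal gland is largely fat, with ducts, vessels, immune cells and, in the fat pad, a lymph node. Soy protein isolate carries isoflavones, plant compounds that can bind estrogen receptors, and soy protein is poorer in methionine than casein. The comparison asks what the soy diet does to gene expression when ovarian estrogen is gone.

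Values are log2-like values that were centred for each probe set on its median over all 12 arrays, so 0 is the middle of the arrays for that gene, and neither an absolute level nor detection can be read. A gene's value is the mean of its probe sets. Differences are soy minus casein on this scale, with the standard error (SE) of a limma model of the 4 group means, and adjusted p-values are Benjamini-Hochberg values from limma over all 14217 genes. Casein plus E2 pools 2 and 3 differed by far less than any other pair of arrays and were averaged, so 11 samples entered the model.

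No gene passed the test for soy without E2. Limma called 0 of 14217 genes at an adjusted p under 0.05 (0%), with a smallest adjusted p of 0.373, while 1472 genes (10.4%) had an unadjusted p under 0.05. In 1107 genes (7.79%) all 3 soy pools lay above all 3 casein pools, and in 783 (5.51%) they all lay below. These shares are the background for the counts of gene lists. RNA came from the whole gland, so fewer cells of a type and less RNA per cell cannot be told apart.

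Some pools carried high values for genes of lymphocytes, muscle or liver, and those genes are kept apart from the rest. The mean of 23 lymphocyte genes was 1.48 in soy pool 2 and 1.93 in soy pool 3, against -1.15 in soy pool 1 and -1.12, -0.86 and -0.90 in casein pools 1 to 3. The lymphocyte difference was thus carried by soy pools 2 and 3. The mean of 37 skeletal muscle genes was 2.37 in casein pool 2, 2.42 in soy pool 2 and 0.99 in casein pool 1, with the other 3 pools between -0.45 and 0.19. The mean of 32 liver genes was 4.37 in casein pool 3 and between -0.10 and 0.22 in the other 5 pools. Soy pool 1 was below 0 on all 3 lists. The mean of 18 hybridisation spike-in probe sets, which no tissue makes, was 0.26, 1.11 and 0.065 in casein pools 1 to 3 and 0.24, -0.12 and -0.21 in soy pools 1 to 3, with casein pool 2 the farthest from the rest and soy pools 2 and 3 the only ones below 0. The 4 genes and several lists below are also given for soy pool 1 alone, the soy pool without high lymphocyte or muscle values.

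**Figure D1:**
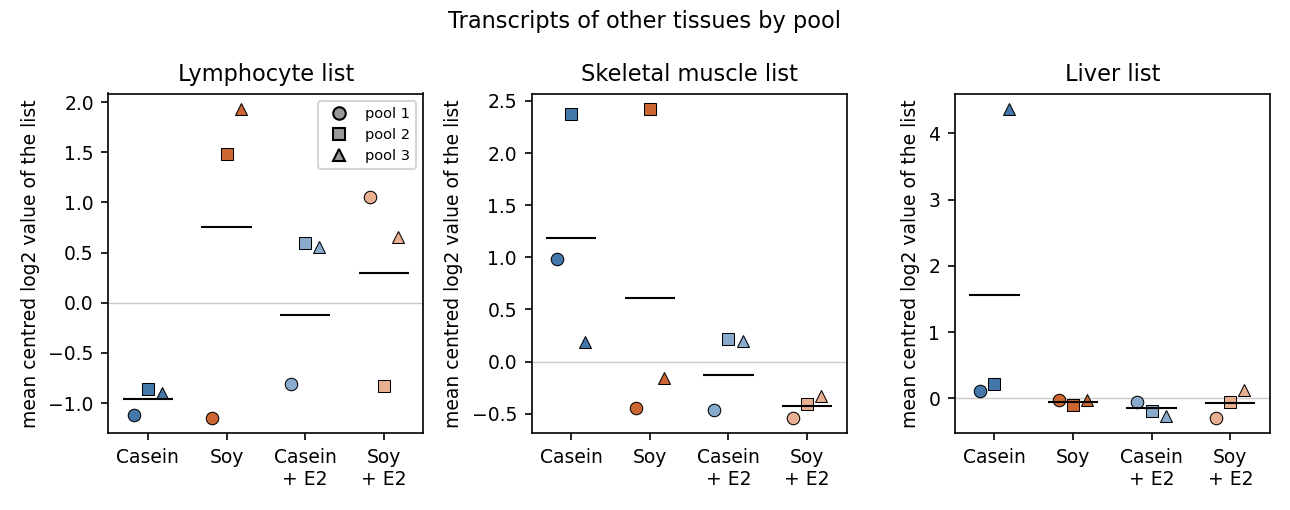
Mean centred log2 value of the lymphocyte, skeletal muscle and liver lists on each of the 12 arrays, by group, with marker shape giving the pool number and the line the group mean (casein plus E2 pools 2 and 3 averaged first). Among the pools without E2, soy pools 2 and 3 are high in lymphocyte transcripts, casein pool 2 and soy pool 2 in muscle transcripts, and casein pool 3 stands alone in liver transcripts.

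Ms4a1, the B-cell surface protein CD20, stood at -2.53, 2.19 and 3.17 in soy pools 1 to 3 and at -2.08, -1.53 and -1.46 in casein pools 1 to 3. Cd4, made by helper T cells and, in rats, also by macrophages, stood at 0.73, 0.41 and 0.92 with soy and -0.41, -0.032 and -0.54 with casein (1.01 ± 0.21, adjusted p = 0.391 in limma), so its groups did not overlap. Of the 23 lymphocyte genes Cd4 and Cd37 had that pattern (8.7%, against 7.79% of all genes). The list's median difference was 1.86, and -0.15 for soy pool 1 against the casein mean. Of 1025 genes higher with soy at an unadjusted p under 0.05 (7.21% of all genes), 323 (31.5%) stayed under it with the lymphocyte mean as a term in the fit, and of 447 lower genes (3.14%), 103 (23%).

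The 4 genes given for this comparison from earlier results of these data were lower in every soy pool than in every casein pool. Mlxipl encodes the carbohydrate response element binding protein (ChREBP), which switches on glycolytic and lipogenic genes in sugar-fed cells. Xylb is xylulokinase, which makes xylulose 5-phosphate, a pentose phosphate tied to ChREBP activation. Fgf21 is a metabolic hormone whose gene responds to sugar through ChREBP and to amino acid shortage through ATF4, and Apln encodes apelin, a peptide hormone of fat and vessels. On the GRCr8 assembly Mlxipl lies on chromosome 12 (27178158 to 27213675), Fgf21 on chromosome 1 (105219825 to 105221376), Apln on chromosome X (132058739 to 132091518) and Xylb on chromosome 8 (127971194 to 128012511).

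The start regions of these genes are shown because the genes were low together in the soy pools and because sequences bound by ChREBP and ATF4 are known. Each window runs from 250 bases before to 50 bases after the start, 5′ to 3′, from the RefSeq table of build GRCr8: Mlxipl chr12:27213611-27213910 on the minus strand (the first of 2 starts listed), Fgf21 chr1:105221327-105221626 minus, Apln chrX:132091197-132091496 minus and Xylb chr8:127973548-127973847 plus. The start in this table lies 2604 bases inside the gene span given above for Xylb, 272 bases inside for Apln and 15 bases inside for Mlxipl. Capitals mark matches on either strand to CACGTG, the E-box found in ChREBP elements, TTGCATCA, the core of an amino acid response element, and TATAAA, which many core promoters carry for binding of the basal transcription machinery.
Mlxipl: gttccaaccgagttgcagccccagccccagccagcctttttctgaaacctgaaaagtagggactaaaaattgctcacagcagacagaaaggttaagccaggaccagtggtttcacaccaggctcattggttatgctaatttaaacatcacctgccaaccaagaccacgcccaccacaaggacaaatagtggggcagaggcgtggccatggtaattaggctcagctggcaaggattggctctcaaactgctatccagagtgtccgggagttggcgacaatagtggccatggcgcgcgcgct
Fgf21: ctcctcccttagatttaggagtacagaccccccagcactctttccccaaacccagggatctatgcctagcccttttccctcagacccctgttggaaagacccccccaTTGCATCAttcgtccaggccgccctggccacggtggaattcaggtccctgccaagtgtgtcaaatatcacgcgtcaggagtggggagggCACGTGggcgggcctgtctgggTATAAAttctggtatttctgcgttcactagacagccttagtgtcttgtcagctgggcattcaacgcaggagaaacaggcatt
Apln: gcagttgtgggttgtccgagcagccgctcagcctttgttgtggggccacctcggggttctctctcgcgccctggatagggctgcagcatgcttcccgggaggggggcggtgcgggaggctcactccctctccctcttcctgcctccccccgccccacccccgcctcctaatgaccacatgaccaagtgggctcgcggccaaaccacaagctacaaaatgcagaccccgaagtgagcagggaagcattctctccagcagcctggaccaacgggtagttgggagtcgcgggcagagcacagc
Xylb: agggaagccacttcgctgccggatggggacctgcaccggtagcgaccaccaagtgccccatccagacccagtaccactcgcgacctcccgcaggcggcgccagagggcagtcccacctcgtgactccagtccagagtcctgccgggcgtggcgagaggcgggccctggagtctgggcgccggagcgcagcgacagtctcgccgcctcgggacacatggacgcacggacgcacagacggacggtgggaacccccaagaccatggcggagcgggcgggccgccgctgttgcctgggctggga
The Fgf21 window held all 3 motifs without overlap, with TTGCATCA, CACGTG and TATAAA beginning at -143, -54 and -32 from the start. The other windows held none of them. Over all 33469 windows of the table CACGTG was present in 6.42%, TTGCATCA in 0.795% and TATAAA in 14.2%. A match describes letters only, and no binding was measured.

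Mlxipl stood at 1.0, 0.84 and 0.44 in casein pools 1 to 3 and at -0.038, -0.019 and -0.13 in soy pools 1 to 3. The soy pools were close together below the lowest casein pool, and the difference was -0.82 ± 0.16 (adjusted p = 0.373 in limma). Xylb stood at 0.38, 0.34 and 0.74 with casein and at -0.22, -0.34 and -0.63 with soy (-0.89 ± 0.16). Fgf21 stood at 0.62, 0.27 and 0.56 with casein and at -0.018, -0.0032 and -0.27 with soy (-0.58 ± 0.11), its lowest casein pool being pool 2. Apln stood at 0.96, 0.80 and 0.57 with casein and at 0.24, 0.035 and 0.012 with soy (-0.68 ± 0.13), and its probe sets gave -0.66 and -0.70. The groups did not overlap for any of the 4 genes, and the adjusted p was 0.373 for each. Since they were proposed with results of these data known, the values describe the pattern and are no test of it.

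Soy pool 1 lacks the lymphocyte transcripts of the other soy pools. Its differences from the casein mean were -0.80 for Mlxipl, -0.71 for Xylb, -0.54 for Apln and -0.50 for Fgf21. Their sign was fixed in advance, since every soy pool lay below every casein pool in these genes. With the lymphocyte mean as a term the differences of Mlxipl, Xylb, Apln and Fgf21 were -0.81, -0.66, -0.56 and -0.52. With the lymphocyte, muscle and liver means together they were -0.93, -0.39, -0.68 and -0.45.

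**Figure D2:**
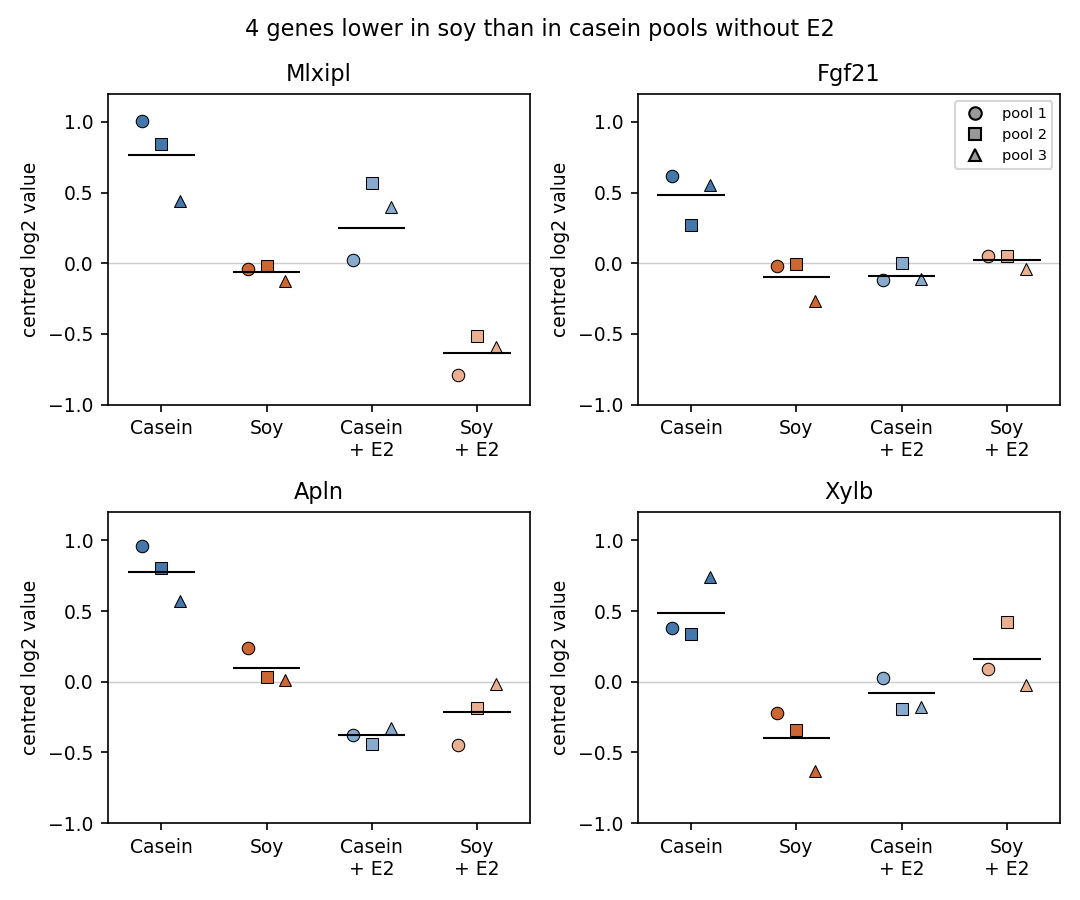
Centred log2 value of Mlxipl, Fgf21, Apln and Xylb on each of the 12 arrays, by diet and E2 group, with marker shape giving the pool number and the line the group mean (casein plus E2 pools 2 and 3 averaged first). Without E2 all 3 soy pools lie below all 3 casein pools in each panel, and Mlxipl alone of the 4 keeps that order without overlap under E2.

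Under E2, on arrays that the comparison without E2 does not share, Mlxipl stood at -0.79, -0.52 and -0.59 in the soy plus E2 pools and at 0.019, 0.56 and 0.40 in the casein plus E2 pools. Its diet difference there was -0.88 ± 0.18 (adjusted p = 0.397 in limma), and the soy effects at the E2 levels were apart by -0.059 ± 0.24 (adjusted p = 0.973). Mlxipl was thus lower with soy in both settings, without overlap. The diet difference under E2 was 0.24 ± 0.18 for Xylb, 0.16 ± 0.15 for Apln and 0.11 ± 0.12 for Fgf21. The soy effects were apart by 1.13 ± 0.24, 0.85 ± 0.20 and 0.69 ± 0.17 for Xylb, Apln and Fgf21, and limma's interaction test gave adjusted p-values of 0.477, 0.537 and 0.542.

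Genes of fat synthesis, many of them ChREBP targets, lay mostly a little below 0. Of 26 genes only 2 had differences above 0, the median was -0.18, and soy pool 1 alone gave a median of 0.035. Mlxipl was the only member with non-overlapping groups (3.85%, against 5.51% of all genes). Fads2, the delta-6 desaturase, differed by -0.63 ± 0.28, but by -0.31 without casein pool 3, the pool with liver transcripts, and by -0.032 with the 3 tissue means as terms. Fasn, the fatty acid synthase, differed by -0.28 ± 0.21, and Srebf1, the sterol element factor that works beside ChREBP, by -0.20 ± 0.22. Under E2 0 of the 26 genes were above 0, with a median of -0.40 and 6 genes with all soy plus E2 pools lower, where 12.8% of all genes were.

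In the sugar and pentose list of 30 genes the median was -0.14, or -0.064 for soy pool 1 alone. Xylb, Rpia, Slc2a2 and Fbp1 (13.3%, against 5.51% of all genes) had all soy pools lower. Rpia, the ribose 5-phosphate isomerase of the pentose phosphate pathway, stood at 0.14, 0.17 and 0.069 with casein and at -0.16, -0.040 and -0.17 with soy (-0.25 ± 0.075), and its probe sets gave -0.036 and -0.46. Slc2a2 and Fbp1, named after their values were seen, are abundant in liver and stood at 4.33 and 4.51 in casein pool 3, the pool with liver transcripts. Pklr, the liver-type pyruvate kinase that ChREBP controls, differed by -0.25 ± 0.11 with overlapping pools.

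The amino acid response list had a median of -0.074 over 29 genes. In all soy pools 1 gene was higher (Slc7a5) and 1 lower (Fgf21), 3.45% each, against 7.79% and 5.51% of all genes. Slc7a5, a large neutral amino acid transporter, stood higher at -0.00047, -0.18 and 0.00047 with soy against -0.52, -0.34 and -0.62 with casein (0.43 ± 0.11, adjusted p = 0.398 in limma). Cbs and Mthfd1l belong to no list and are named for their small p. Cbs, cystathionine beta-synthase, which commits homocysteine to cysteine synthesis, stood at 0.32, 0.54 and 0.96 with casein and at -0.058, -0.29 and -0.19 with soy (-0.78 ± 0.17). Cbs is also made in liver, and its highest value was in casein pool 3. Its difference was -0.57 with the liver mean as a term and -0.61 without casein pool 3. With the lymphocyte, muscle and liver means as terms it was -0.38. The part of liver transcripts was not tested further. Mthfd1l, a mitochondrial folate enzyme, stood at 0.21, 0.52 and 0.93 with soy and at -0.34, -0.36 and -0.24 with casein (0.87 ± 0.16).

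Lipid oxidation and cholesterol genes had small medians. The median of 29 oxidation genes was -0.14, or 0.00013 for soy pool 1 alone. All soy pools were lower in 4 of the genes (13.8%, against 5.51% of all genes). They were Eci1, an isomerase of unsaturated fatty acid oxidation (-0.33 ± 0.098), Plin2, a lipid droplet coat protein (-0.34 ± 0.12), Cyp4b1 (-0.39 ± 0.14) and Etfdh. The probe sets of Plin2 gave -0.083 and -0.60. Of 20 cholesterol synthesis genes 4 (20%, against 5.51% of all genes) had all soy pools lower. The median of that list was -0.14, or -0.038 for soy pool 1 alone. Pmvk, phosphomevalonate kinase, stood at 0.51, 0.62 and 0.48 with casein and at 0.32, 0.16 and 0.020 with soy (-0.37 ± 0.093), so soy pool 1 was the nearest to casein. Nsdhl, a sterol dehydrogenase, differed by -0.61 ± 0.23 and Cyp51, the lanosterol demethylase, by -0.34 ± 0.16. Adipocyte genes had a median of -0.12 over 25 genes but 0.21 for soy pool 1 alone, and Adipoq, the adiponectin gene, differed by -0.023 ± 0.39.

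The 15 genes of smallest p on the higher side had differences from 0.47 to 1.29, each with an adjusted p of 0.373 in limma. Zfp26, a zinc finger protein, stood at 0.39, 0.44 and 0.35 with soy and at -0.23, -0.42 and -0.29 with casein (0.70 ± 0.094). Giot1, another zinc finger protein, stood at 0.57, 0.34 and 0.55 against -0.33, -0.19 and -0.12 (0.70 ± 0.12). In both genes the soy pools lay close together, soy pool 1 included.

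Cdc73, parafibromin of the PAF1 complex that travels with RNA polymerase II, stood at -0.25, 0.26 and -0.038 with soy and at -0.78, -1.40 and -1.03 with casein (1.06 ± 0.17). Lrif1, a nuclear receptor-interacting factor of silent chromatin, stood at 0.42, 0.65 and 0.66 against -0.051, -0.14 and -0.050 (0.66 ± 0.10). Both were known to be high in the soy pools when a list of transcription and chromatin factors was drawn up, so the list is not independent of them. Of its 24 genes 8 (33.3%) had all soy pools higher, against 7.79% of all genes, and 0 had them all lower. The other members were Smchd1, Trim28, Hdac1, Med12, Supt6h and Chd1. Hdac1, a histone deacetylase, differed by 0.56 ± 0.16, and the list's median was 0.085, or 0.20 for soy pool 1 alone.

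Fbl, fibrillarin of the nucleolus and also among the 15, differed by 0.58 ± 0.11, Polr1b, a subunit of RNA polymerase I, by 0.48 ± 0.095, Med21, a Mediator subunit, by 0.47 ± 0.090 and Pus7l, a pseudouridine synthase relative, by 0.91 ± 0.16. Fancl, the ubiquitin ligase of the Fanconi anaemia pathway, differed by 0.84 ± 0.14 and the phosphatase gene Cdc14a by 0.53 ± 0.099. Siglec10, a sialic acid-binding receptor of B cells and macrophages, stood at -0.017, 0.38 and 0.89 with soy against -0.82, -0.68 and -1.13 with casein (1.29 ± 0.22). Its soy values run in the order of the lymphocyte means, and its difference was 0.97 with the lymphocyte mean as a term. Sema4a, a semaphorin (0.68 ± 0.13), and Hmox1, heme oxygenase (0.48 ± 0.094), are the remaining ones beside Mthfd1l and Wif1. With the lymphocyte term the 15 differences ran from 0.35 to 0.98. Soy pool 1 alone lay between 0.41 and 0.86 above the casein mean. Its side was fixed in advance, since the genes were chosen with all soy pools above all casein pools.

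Wif1, a secreted inhibitor of Wnt ligands, stood at 0.071, 0.52 and 0.69 with soy and at -0.55, -0.44 and -0.43 with casein (0.90 ± 0.17). Under E2 the order was turned, with soy at -0.38, -0.56 and -0.071 and casein at 0.39, 0.27 and 0.23 (-0.66 ± 0.19). The soy effects were apart by -1.55 ± 0.25, with an adjusted p of 0.343 in limma's interaction test.

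On the lower side the 15 differences ran from -0.89 to -0.38, with adjusted p-values in limma from 0.373 to 0.395. They include Xylb, Mlxipl, Apln, Fgf21 and Cbs. Chrd, the bone morphogenetic protein antagonist chordin, differed by -0.47 ± 0.100, Plxnb1, a semaphorin receptor, by -0.42 ± 0.091 with probe sets at -0.72, -0.47 and -0.068, and Rtn4rl2, a Nogo receptor relative, by -0.38 ± 0.076. Mapk13, a p38 kinase, differed by -0.44 ± 0.099, the dipeptidase gene Dpep2 by -0.47 ± 0.11, Dnai7, of ciliary dynein, by -0.43 ± 0.090 and C4h3orf22 by -0.46 ± 0.11. Zeb2, a repressor of epithelial genes, differed by -0.50 ± 0.11 as the mean of 5 probe sets, which gave 0.0042, -0.0041, -0.35, -1.89 and -0.26, so 1 probe set carries most of the mean.

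Psme4, the proteasome activator PA200, stood at 0.050, -0.032 and -0.034 with casein and at -0.52, -0.31 and -0.51 with soy (-0.44 ± 0.095, adjusted p = 0.391 in limma), and its probe sets gave -0.47, -0.44 and -0.40. Under E2 it stood at 0.039, 0.15 and -0.12 with soy against 0.55, 0.54 and 0.53 with casein (-0.52 ± 0.11, adjusted p = 0.397). Psme4 and Mlxipl were the members of the lower 15 with non-overlapping groups in the same direction under E2. They are 2 of 15, where 12.8% of all genes had all soy plus E2 pools lower.

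Myocd, a coactivator of smooth muscle genes and also among the lower 15, stood at 0.43, 0.56 and 0.36 with casein and at -0.17, -0.069 and -0.11 with soy (-0.56 ± 0.13, adjusted p = 0.395 in limma). In the basal epithelium list Myh11, the smooth muscle myosin of vessels and myoepithelial cells, stood at 0.066, -0.068 and 0.27 against -0.54, -0.38 and -0.93 (-0.71 ± 0.19). Myl9, a myosin light chain, differed by -0.51 ± 0.18, and Tagln, transgelin, by -0.52 ± 0.20 with overlapping pools. With the lymphocyte, muscle and liver means as terms the differences were -0.38 for Myocd and -0.17 for Myh11, and they turned direction to 0.094 for Myl9 and 0.057 for Tagln. Of the 18 genes of the list 1 was above 0. All soy pools were lower in 3 (16.7%, against 5.51% of all genes), Myh11, Itga6 and Myl9. The list's median was -0.34, and -0.023 for soy pool 1. Pln, phospholamban, kept apart with the muscle genes, stood at 0.44, 0.50 and 0.71 with casein and at 0.066, -0.13 and -0.15 with soy (-0.62 ± 0.12), without the high value that the muscle list has in soy pool 2.

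**Figure D3:**
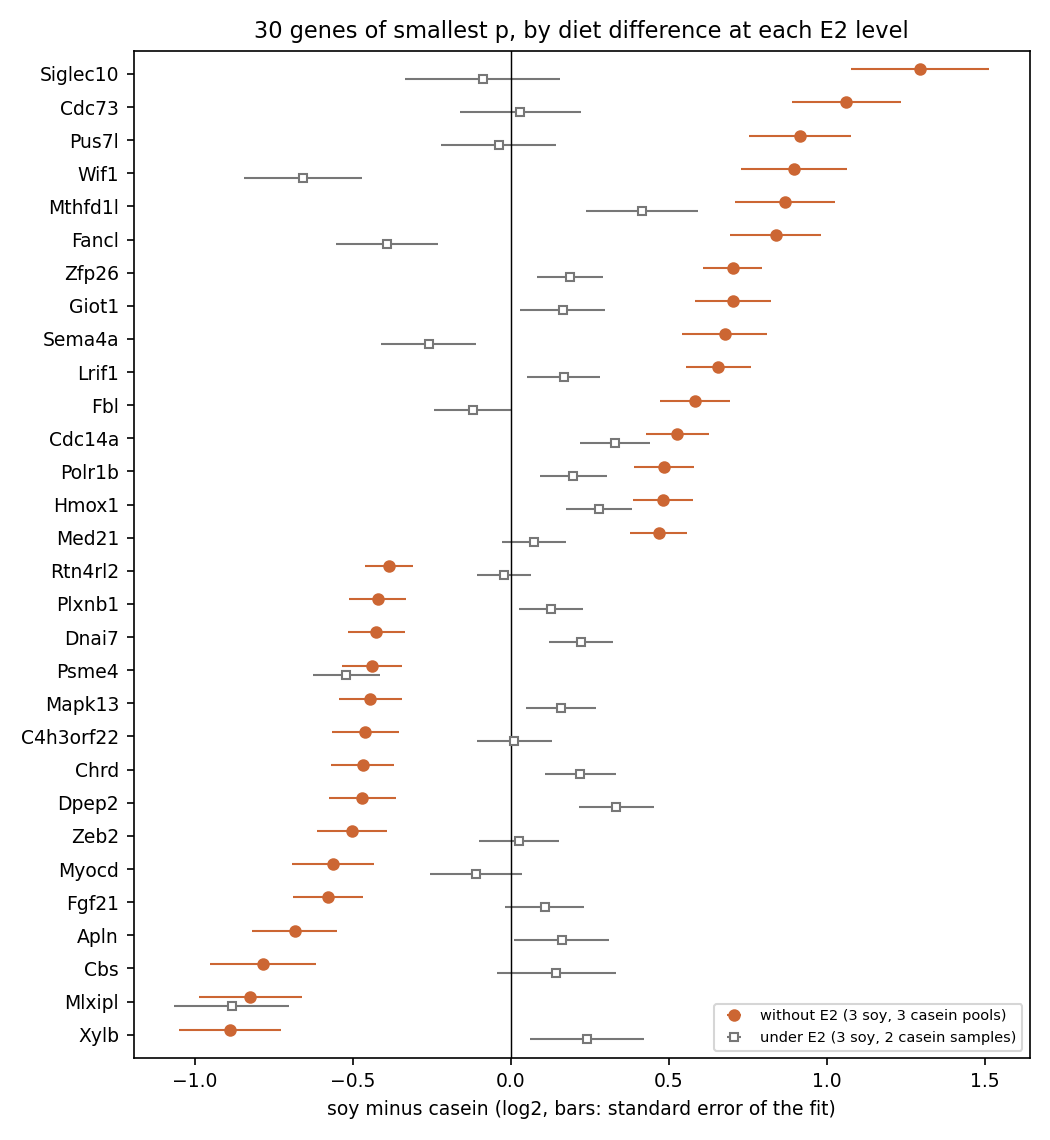
Soy minus casein difference on the log2 scale with the standard error of the fit for the 15 higher and 15 lower genes of smallest p, without E2 (filled circles) and under E2 (open squares). The filled circles were chosen for their distance from 0. The median of the open squares is 0.073 for the higher and 0.13 for the lower genes. Mlxipl and Psme4 are the lower genes whose groups keep that order without overlap under E2.

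The arrays under E2 give a second view of the diet in these genes. Of the 15 higher genes 9 (60%) had a difference of the same sign under E2, and of the 15 lower genes 4 (26.7%), where all genes gave 51.2%. The medians were 0.70 and -0.47 without E2 and 0.073 and 0.13 under E2. Mthfd1l, Cdc14a and Hmox1 were higher with soy without overlap in both settings, with 0.42 ± 0.18, 0.33 ± 0.11 and 0.28 ± 0.11 under E2. These are 3 of the 15 higher genes, where 10.5% of all genes had all soy plus E2 pools higher. Fancl and Wif1, 2 of the 15 higher genes, had non-overlapping groups in the opposite order there. Of all genes 12.8% had all soy plus E2 pools lower. Fgf21, Dnai7, Chrd, Plxnb1 and Dpep2, 5 of the 15 lower genes, also had the opposite order without overlap, against the 10.5% of all genes.

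Over all genes, 104 of the 1107 with all soy pools higher without E2 (9.39%) had all soy plus E2 pools above both casein plus E2 samples, where 10.5% of all genes did. Another 121 (10.9%) had them all below, where 12.8% of all genes did. Of the 783 lower genes 86 (11%) were again lower and 98 (12.5%) higher. Under E2 limma called 1 gene for the diet (0.00703%), Ppif, a mitochondrial cyclophilin (-1.23 ± 0.12, adjusted p = 0.0324), which differed by 0.065 ± 0.11 without E2; 321 genes (2.26%) had an unadjusted p under 0.05 on the higher and 404 (2.84%) on the lower side. For the difference of the soy effects limma called 0 genes (0%), with 929 (6.53%) at an unadjusted p under 0.05.

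In 8 of the 15 higher and 7 of the 15 lower genes the casein pools without E2 stood apart from all 9 other arrays. Of all genes with non-overlapping pools, 347 of 1107 higher (31.3%) and 180 of 783 lower genes (23%) had that pattern. In Cdc73, for example, the 9 others lay between -0.25 and 0.26, above all casein pools. The difference of E2 from no E2 in casein-fed rats uses the same 3 casein pools, so it is given side by side only. For Cdc73 soy gave 1.06 and E2 1.17, for Fancl 0.84 and 0.93, for Apln -0.68 and -1.16, and for Zfp26 0.70 and 0.18.

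Macrophage genes lay higher in the soy pools. Of 21 measured genes 9 (42.9%) had all soy pools higher, against 7.79% of all genes, and 0 passed the test. C1qb, a chain of the first complement component made by tissue macrophages, stood at 0.60, 0.56 and 0.58 with soy and at -0.27, 0.098 and -1.06 with casein (0.99 ± 0.25, adjusted p = 0.398 in limma). C1qa stood at 0.78, 0.32 and 0.49 against -0.33, 0.10 and -0.37 (0.73 ± 0.18). Soy pool 1 was the highest soy pool for C1qa and, by little, for C1qb. In the mean of the macrophage list it was the lowest soy pool, as in the lymphocyte list.

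The other macrophage genes with that order were Csf1r, the receptor of the macrophage growth factor, Fcgr2b, C1qc, Ctss, Laptm5, Tyrobp and Siglec10, and Itgax alone had all soy pools lower. The list's median difference was 0.58, or 0.46 with the lymphocyte mean as a term and 0.48 for soy pool 1. Its mean was 0.24, 0.30 and 0.43 in soy pools 1 to 3 and -0.25, 0.11 and -0.43 in casein pools 1 to 3. Under E2 the median was -0.11, with 6 of 21 genes above 0.

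Interferon response genes lay mostly above 0 with and without E2. Of 25 genes 21 were above 0 without E2 and 22 under E2, with medians of 0.21 and 0.22. All soy pools were higher in 3 (12%) without E2 and in 13 under E2, where 7.79% and 10.5% of all genes were. Psmb8, an immunoproteasome subunit, stood at 0.069, 0.44 and 0.86 with soy and at -0.46, -0.30 and -0.069 with casein (0.73 ± 0.18), and differed by 0.55 ± 0.20 under E2. Irf9, part of the complex that carries interferon signals to DNA, differed by 0.27 ± 0.077 and by 0.25 ± 0.086 under E2. Without E2 the list's median was 0.027 for soy pool 1 and 0.094 with the lymphocyte mean as a term.

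Endothelial genes lay slightly lower with soy. Of 18 genes 1 was above 0, and 6 (33.3%) had all soy pools lower, against 5.51% of all genes, with a median of -0.19. Erg, a transcription factor of vessel lining cells, stood at 0.40, 0.54 and 0.38 with casein and at 0.065, 0.13 and -0.14 with soy (-0.42 ± 0.15, adjusted p = 0.43 in limma). Esam, a junction protein, differed by -0.38 ± 0.17 and Egfl7, a secreted factor of vessel cells, by -0.34 ± 0.16. The list's median was -0.094 with the lymphocyte mean as a term, and Erg and Esam were -0.11 and -0.062 with the 3 tissue means as terms. Under E2 the list lay on the other side, with 17 of 18 genes above 0 and a median of 0.47. Erg differed by 0.55 ± 0.16 there, and its soy effects were apart by 0.98 ± 0.22 (limma interaction, adjusted p = 0.528). Among vascular signals Vegfa, a vessel growth factor (-0.31 ± 0.10), had all soy pools lower. So did Angpt2, a ligand of the vessel receptor TIE2 (-0.39 ± 0.15), and Apln. Together they make 3 of 20 genes (15%, against 5.51% of all genes).

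Estrogen response genes had no common direction. The median over 31 genes was -0.055, with 14 above 0. All soy pools were higher in 3 (9.68%, against 7.79% of all genes). Pgr, the progesterone receptor and a classical estrogen target, stood at -0.82, -1.37 and -1.07 with casein and at -0.91, -1.0 and -1.33 with soy (0.0072 ± 0.35), while E2 in casein-fed rats gave 3.09. Greb1 differed by -0.31 ± 0.19 and Areg, amphiregulin, by -0.93 ± 0.53 (Areg -1.46 without casein pool 2), where E2 in casein-fed rats gave 1.54 and 3.02. The receptor genes Esr1 (-0.11 ± 0.15) and Esr2 (-0.055 ± 0.098) had overlapping pools. These errors leave room for differences in either direction. With standard errors of 0.35 for Pgr and 0.53 for Areg, such differences need not be small.

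Ramp3, which encodes a partner of calcitonin-family receptors, stood at 0.12, -0.19 and -0.12 with soy and at -0.75, -0.50 and -0.49 with casein (0.52 ± 0.16, adjusted p = 0.419 in limma), and E2 in casein-fed rats gave 1.42. Under E2 soy was lower, at -0.19, 0.37 and 0.30 against 0.93, 0.77 and 0.71 (-0.67 ± 0.18). Ret, a receptor tyrosine kinase, differed by 0.29 ± 0.12, and Susd3 by 1.01 ± 0.34, with soy at -0.72, 0.43 and 0.87 and casein at -0.85, -0.72 and -0.89. Susd3 was thus high in soy pools 2 and 3, the pools with lymphocyte transcripts, and level with casein in soy pool 1.

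Milk and epithelial genes varied widely between pools. Of 18 milk and secretory genes 3 were above 0 (median -0.24). Spp1, osteopontin, alone had all soy pools lower (5.56%, against 5.51% of all genes). Wap, the whey acidic protein, stood at -1.31, -4.42 and -1.22 with casein and at -3.73, -3.93 and -2.93 with soy (-1.22 ± 0.83). Csn2, beta-casein, stood at -0.84, -5.98 and -0.64 against -3.63, -4.29 and -2.53 (-1.0 ± 1.18). Casein pool 2, high in muscle transcripts, lay below every soy pool for both genes, and the other casein pools lay above; without it the differences were -2.27 for Wap and -2.74 for Csn2. Of 25 luminal epithelium genes 2 were above 0 (median -0.31), but soy pool 1 alone gave 0.17. Proliferation genes had a median of -0.084 over 35 genes with 0 non-overlapping, and Mki67 differed by -0.29 ± 0.24.

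**Figure D4:**
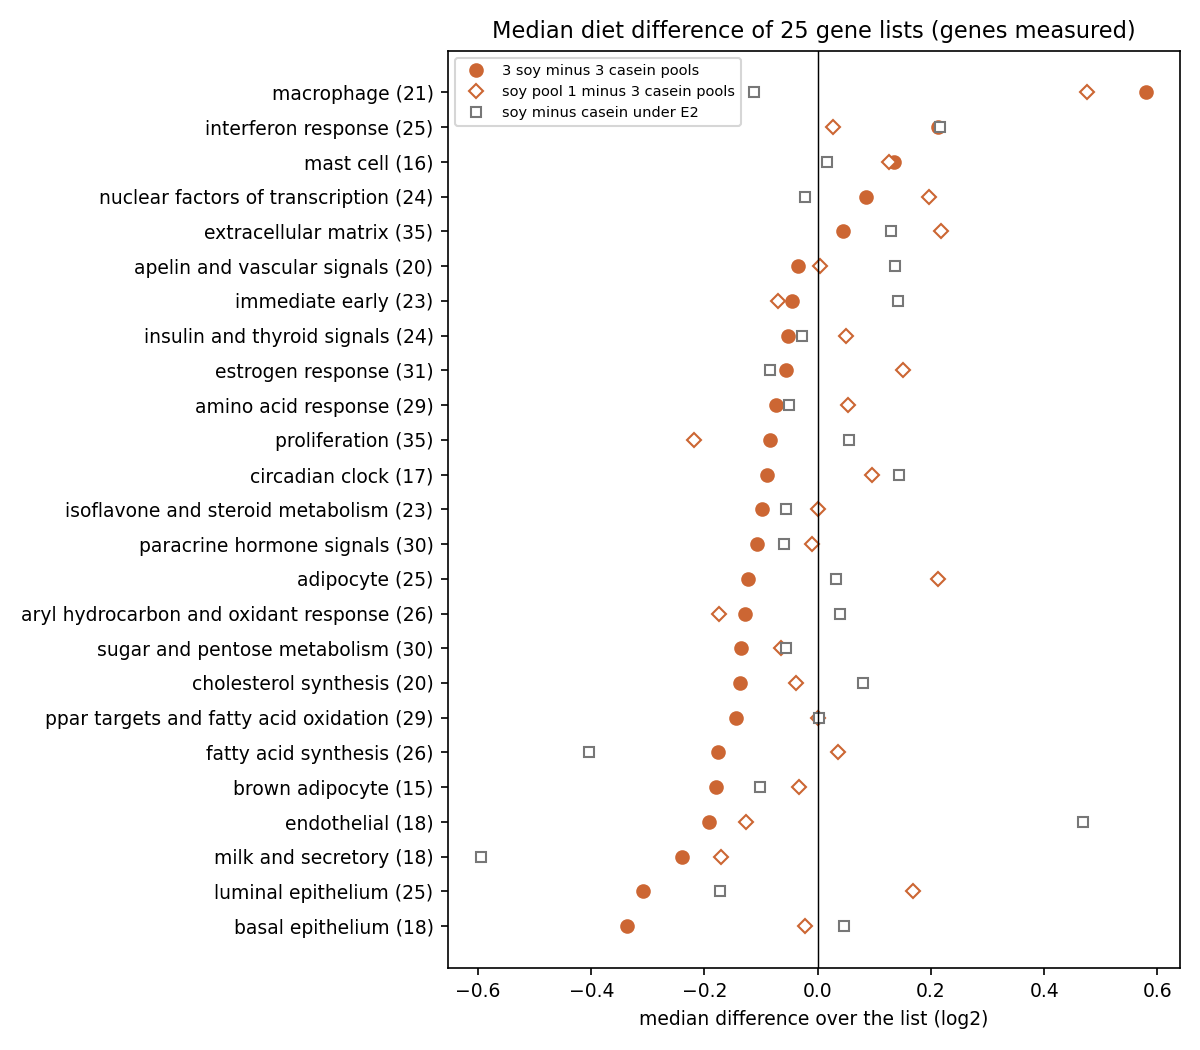
Median soy minus casein difference (log2) over the measured genes of each of 25 lists, for the 3 soy against the 3 casein pools (filled circles), for soy pool 1 alone against the casein pools (open diamonds) and under E2 (open squares). Macrophage genes have the highest filled circle (0.58) and lie below 0 under E2, and the endothelial list changes side under E2.

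A few clock genes lay higher with soy with and without E2. Nr1d1, the clock repressor REV-ERB alpha, stood at 1.0, 1.37 and -0.30 with soy and at -0.084, -0.32 and -0.36 with casein (0.95 ± 0.39), so soy pool 3 lay among the casein pools. Under E2 it stood at 1.75, 1.13 and 2.13 with soy and at -0.14, 0.084 and -0.18 with casein (1.76 ± 0.43, adjusted p = 0.527 in limma). Dbp, a clock-driven transcription factor, differed by 0.48 ± 0.23 and by 1.35 ± 0.26 under E2 (Dbp 0.27 without casein pool 3), and Nr1d2 by 0.37 ± 0.14 and 0.76 ± 0.16. Without E2 the probe sets of Nr1d2 gave 0.14, 0.58 and 0.38. The median of the 17 clock genes was -0.090, with 5 above 0. All soy pools were higher in Nr1d2 and Dbp (11.8%, against 7.79% of all genes) and lower in Clock alone (5.88%, against 5.51%). Under E2 all soy pools were higher in 6 and lower in 6 of the list, where 10.5% and 12.8% of all genes were. The time of day of collection is not given in the sources used here.

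Among steroid enzymes Hsd17b1, which makes estradiol from estrone, stood at 0.76, 0.25 and 0.41 with soy and at 0.046, 0.12 and 0.0053 with casein (0.42 ± 0.13). Hsd17b2 and Ugt2b1 had all soy pools lower and stood at 2.11 and 2.81 in casein pool 3, beside its liver transcripts. Of the 23 genes of the isoflavone and steroid list, Hsd17b1 alone had all soy pools higher (4.35%, against 7.79% of all genes). The lower ones make 8.7%, against 5.51% of all genes. Cyp1a1, the classical aryl hydrocarbon receptor target, stood at 1.28, -1.60 and 4.84 in casein pools 1 to 3 and at -0.45, 0.61 and 0.45 with soy (-1.30 ± 1.49), and without casein pool 3 the difference was 0.37. Pik3r1, the regulatory subunit of phosphoinositide 3-kinase, stood at 0.52, 1.78 and 1.26 with soy and at -0.31, -0.24 and -0.16 with casein (1.42 ± 0.31, adjusted p = 0.391 in limma), and its difference was 0.98 with the lymphocyte mean as a term.

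**Figure D5:**
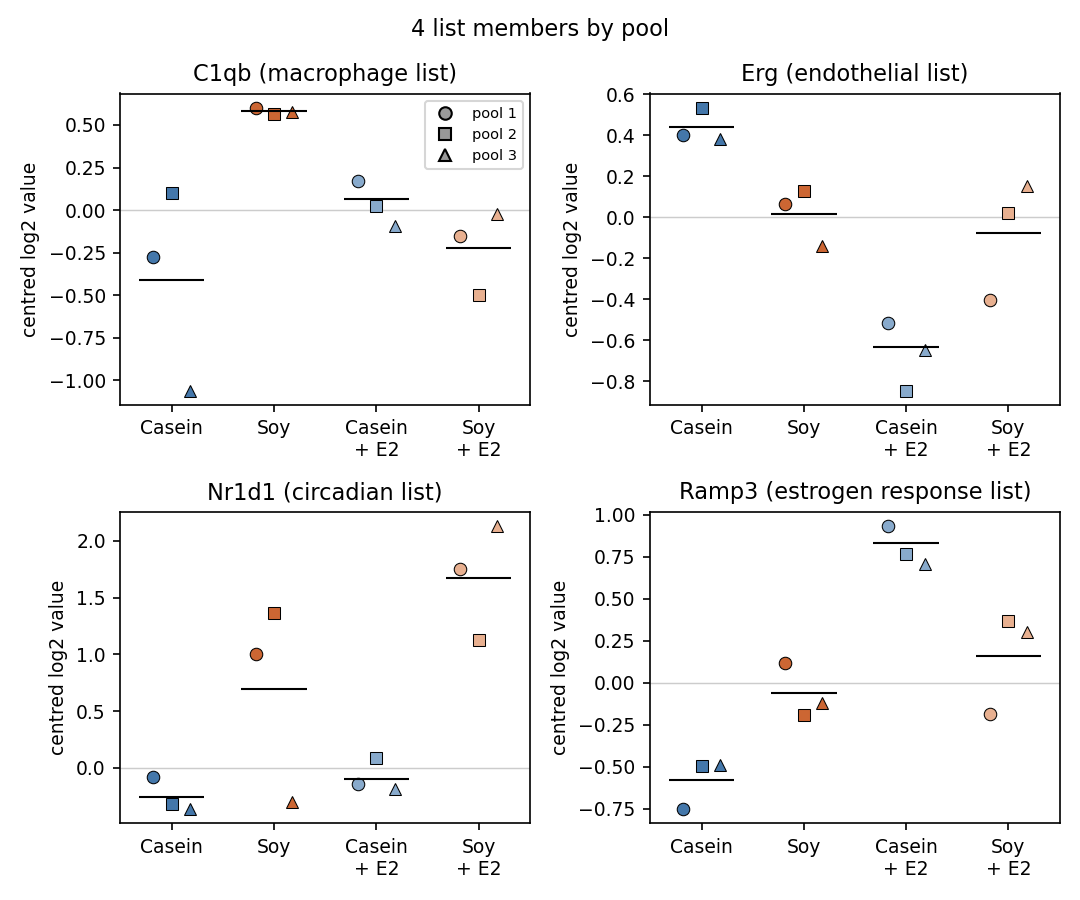
Centred log2 value of C1qb, Erg, Nr1d1 and Ramp3 on each of the 12 arrays, by diet and E2 group, with marker shape giving the pool number and the line the group mean (casein plus E2 pools 2 and 3 averaged first). C1qb is higher in all 3 soy pools than in the casein pools without E2, Erg and Ramp3 differ between diets in opposite directions with and without E2, and Nr1d1 is high in every soy pool but soy pool 3.

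The genes whose pattern over 11 samples was most like the mean of Mlxipl, Fgf21, Apln and Xylb were Kif1c, a kinesin motor (r = 0.913, rho = 0.845), Rtn4rl2 (r = 0.897, rho = 0.364), Acsl3, an acyl-CoA synthetase (r = 0.891, rho = 0.736), Stbd1, a glycogen-binding protein (r = 0.888, rho = 0.973), and Zcchc12 (r = 0.886, rho = 0.709). The ribosomal protein gene Rpl27 (r = -0.966, rho = -0.727) ran most opposite, with Ruvbl2, Rpl6, Atic and Eif3m. The samples include the casein pools for which the 4 genes were chosen, so these correlations are a description without a test.

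Of the other settings of the fit, 2 called genes. With limma's array weights 1588 genes passed, 1136 higher (7.99%) and 452 lower (3.18%), with all 4 given genes and 15 of the 15 higher and 14 of the 15 lower genes of smallest p among them. The weights were 3.89 for soy pool 2 and 2.40 for casein pool 1 against 0.31 for soy pool 1 and 0.39 for casein pool 2. Without soy pool 1, 327 genes passed, 292 higher (2.05%) and 35 lower (0.246%), among them Fgf21, Apln and Xylb but not Mlxipl. The calls included 20 of 23 lymphocyte genes with array weights and 7 without soy pool 1. Soy pools 2 and 3 are those with the lymphocyte transcripts and a negative spike-in mean. Of the 21 macrophage genes 9 and 1 were called.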

How the data were processed

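RNA pools of rat mammary gland (8 µg RNA each) were hybridised to Affymetrix arrays. The authors deposited 1 table of log2-like values for 31099 probe sets on 12 arrays, each probe set centred on its median; GCOS is named in the submitters' processing notes, and neither labels nor file header state how probes were summarised, how arrays were normalized or which log base was used. Probe sets with 1 gene symbol in the platform annotation (20826) were averaged to 14217 genes, 4525 of which have several; 436 probe sets with several symbols and 9780 unnamed ones were left out.

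Group means were fitted with limma 3.58.1 (lmFit and eBayes, R 4.3.3) on 11 samples, with 7 residual degrees of freedom and Benjamini-Hochberg adjustment at 0.05. Casein plus E2 pools 2 and 3 were averaged because the SD of their difference was 0.163, against 0.301 or more for all other pairs. The contrasts were soy minus casein without E2, and its difference from the same contrast under E2. The code was tested on simulated data.

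The members and gene lists were chosen with earlier results of these data known. Named genes are the 4 given, the 15 of smallest p in each direction with non-overlapping pools (without the 3 other-tissue lists and uncharacterised symbols), up to 3 per list, 16 genes of prior interest, and the 5 most and 5 least like the 4. Alternatives were quantile normalization, median centring, probe set handling, only the 6 arrays, 12 separate arrays, the replicate block, array weights, spike-in and tissue terms, and each pool left out. Promoters and coordinates are from RefSeq tables of GRCr8.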

Additional observations from a re-analysis of the deposited data

How the results depend on the processing

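For soy against casein without E2, limma called 0 genes in every alternative but array weights (1588 genes) and the fit without soy pool 1 (327 genes), and leaving out each pool in turn gave from 0 to 327. For the difference of the soy effects, 0 genes became 4 with 12 separate arrays, 5 with array weights, 1 with the sign of the spike-in mean as a term and 1 with the lymphocyte mean as a term, and leaving out each pool gave 0 throughout. The pool number as a replicate block gave 0 called genes and 1211 at an unadjusted p under 0.05; same-numbered pools did not deviate together (correlations 0.0694, 0.0562 and 0.00526), so the numbers were not taken as pairs. The 15 higher and 15 lower genes kept their direction in every alternative run. They were chosen with non-overlapping pools, so their direction was fixed in advance wherever pools were left out, weighted or kept as separate arrays. The same holds for the fits of only the pools without E2 and of only arrays of positive spike-in mean. The replicate block also leaves these differences as they were, since each diet group holds each pool number once. Median centring shifted arrays by medians from -0.025 to 0.011, too little to turn differences of -0.38 or lower and 0.47 or higher. The direction could turn only with quantile normalization, probe set handling in genes with several probe sets, or spike-in and tissue terms. Probe sets on their own were read as the median over each gene's probe sets. Of the separate probe sets of these genes, 1 of Zeb2 (0.0042) lay on the other side. Named genes with a turned direction follow, as differences of soy minus casein; the cause was not tested. With array weights, Pgr was -0.10, Esr1 0.12 and Ppif -0.0066. With the sign of the spike-in mean as a term, Srebf1 was 0.10. With only arrays of positive spike-in mean, Tnfsf11 was -0.16, Mcm3 -0.057, Zfp36 -0.12, Greb1 0.058, Igf1 0.035, Srebf1 0.31 and Adipoq 0.29. With the lymphocyte mean as a term, Greb1 was 0.011, Srebf1 0.19 and Adipoq 0.069. With the muscle mean as a term, Pgr was -0.0097. With the liver mean as a term, Hsd17b2 was 0.044, Pgr -0.033, Csn2 0.016 and Cyp1a1 0.61. With all 3 tissue means as terms, Pank1 was 0.072, Myl9 0.094, Tagln 0.057, Mmp9 -0.26, Osgin1 0.12, Hsd17b2 0.014, Esr1 0.079, Igf1 0.24 and Srebf1 0.0086. With casein pool 2 and soy pool 2 left out, Pgr was -0.17, Igf1 0.025, Srebf1 0.11 and Adipoq 0.34. Leaving out each pool in turn, the differences ran from -0.29 to 0.16 for Adipoq, from -0.13 to 0.14 for Pgr, from -0.27 to 0.022 for Esr1 and from -2.86 to 0.37 for Cyp1a1. The number of pools limits precision, the values hold no signal over background, and how they were normalized is not stated.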
